A study of Canis lupus familiaris with 8 samples.

Results

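Transcripts of 5 genes of the TGF-beta and BMP pathway were measured in anterior leaflets of the mitral valve from 8 dogs: the ligands TGFB1, TGFB2, BMP2 and BMP6 and the signal transducer SMAD5. The members are all probe sets whose annotated symbol is one of these names, which gave 5 probe sets, 1 for each gene, of 23836 on the array other than array controls. All 5 passed the filter on dim signals that left 14705 probe sets, and 5438 named genes, for testing. The choice was made with the difference between affected and control leaflets already known, so that difference is described for these genes and carries no test. Leaflets came from 4 control dogs, all of them beagle crosses, and from 4 dogs with degenerative mitral valve disease, an acquired thickening of the leaflets. Affected 1 was a Lhasa apso, affected 3 a Dachshund, and affected 2 and affected 4 were Miniature poodles. Each dog gave frozen tissue of 1 leaflet and 1 Affymetrix array of total RNA. Since no control shared a breed with an affected dog, disease and breed cannot be told apart. The labels give no age, sex or stage of disease.

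TGF-beta is secreted in a latent form that is held in the matrix, and once released it binds paired type II and type I receptor kinases. BMPs are relatives in the same family that use their own type I receptors. Type I receptors phosphorylate receptor SMAD proteins, SMAD2 and SMAD3 on the TGF-beta side and SMAD1, SMAD5 and SMAD9 on the BMP side, which enter the nucleus with SMAD4. In the heart these ligands help form the valve cushions during development, and in adult valves TGF-beta is known for turning interstitial cells into contractile, matrix-producing myofibroblasts.

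The arrays were brought to one scale for the comparison, each set to a trimmed mean of 500.1, and their medians then lay between 124 and 191. Markers of valve interstitial cells, such as the cytoskeletal protein VIM and the collagen COL1A2, were bright on every array, with a mean log2 signal of the 9 tested markers between 11.73 and 14.04. The lowest of these values was that of control 2, and the next was 13.49. Cardiac muscle markers were measured in every leaflet too, with a mean log2 signal of 15 markers from 10.17 in affected 3 to 13.92 in control 2, so the leaflets held muscle transcripts in amounts that differed between dogs. Control 2 therefore stood apart, with the least interstitial and the most muscle signal, and member and pathway values that it moved by over 1.5 times are given with and without it. In a bulk sample, fewer cells of a type and less RNA per cell cannot be told apart.

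BMP6 had the widest separation of the groups among the 5 genes. It encodes a BMP that is known for its part in iron metabolism and bone and is made by endothelial cells in several tissues. Its signal was 992 in control 1, 461 in control 2, 1493 in control 3 and 1292 in control 4. In affected dogs it was 8524 in affected 1, 4011 in affected 2, 3204 in affected 3 and 1968 in affected 4. Every affected leaflet lay above every control, and the lowest affected dog was 1.32 times the highest control. The log2 signal had a mean of 9.92 ± 0.75 in the 4 controls and of 11.90 ± 0.88 in the 4 affected dogs (± SD). The difference was 1.98 ± 0.48 (log2, SE from limma), or 3.95 times. The affected dogs differed among themselves by 4.33 times from lowest to highest, which exceeds the mean difference between the groups, and the controls by 3.24 times. Without control 2 the controls averaged 10.28 ± 0.30 (SD, n = 3), the difference was 1.63 ± 0.43 and the groups stayed apart. Without affected 1, the dog with the highest signal, it was 1.60.

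SMAD5, which carries the signal of BMP receptors to the nucleus, went the other way. Its signal was 297, 233, 239 and 431 in controls 1 to 4. In affected dogs it was 125 in affected 1, 152 in affected 2, 151 in affected 3 and 189 in affected 4. Every affected leaflet lay below every control, with a factor of 1.23 between the nearest dogs. The log2 signal had a mean of 8.18 ± 0.41 in the 4 controls and of 7.25 ± 0.24 in the 4 affected dogs (± SD), a difference of -0.93 ± 0.29 (log2, SE), so that controls had 1.90 times the signal. The position of the probe set within each array moved in the same direction: it stood between the 59.8th and the 70.9th percentile of all probe sets in controls and between the 43.5th and the 55.9th in affected dogs. The gene is therefore of middling brightness on these arrays, and every value lay above the floor of 34.2 that was used for dim signals. Leaving out 1 dog at a time kept the difference between -1.03 without control 2 and -0.74 without control 4.

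The order of the affected dogs for these genes was nearly opposite. Affected 1 had the highest BMP6 and the lowest SMAD5, and affected 4 had the lowest BMP6 and the highest SMAD5 of the affected group, while affected 2 and affected 3 lay between them with almost equal SMAD5. The controls did not show such an order, since control 2 was lowest for both genes. With 4 dogs in a group this order is a description only.

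TGFB1, the isoform most often linked to scarring and myofibroblasts, had signals of 1008 in control 1, 427 in control 2, 800 in control 3 and 602 in control 4. The affected dogs had 1646 in affected 1, 650 in affected 2, 1348 in affected 3 and 1115 in affected 4. Affected 1, 3 and 4 lay above all controls and affected 2 lay within the control range, so the groups overlapped. The log2 signal had a mean of 9.40 ± 0.54 in the 4 controls and of 10.14 ± 0.58 in the 4 affected dogs (± SD), a difference of 0.74 ± 0.36 (log2, SE). Affected 2 and affected 4 are both Miniature poodles, and their TGFB1 values lay on opposite sides of control 1 and control 3. The difference was 1.00 without affected 2 and 0.52 ± 0.34 without control 2.

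TGFB2, the isoform with a leading part in forming the valve cushions of the embryo, differed less. Its signal was 307, 138, 281 and 350 in controls 1 to 4, and 310, 383, 327 and 226 in affected dogs 1 to 4. Of the affected dogs, 1 lay above all controls, and the lowest affected dog was below 3 of the controls. The mean log2 signal was 7.99 ± 0.60 for the 4 controls and 8.26 ± 0.32 for the 4 affected dogs (± SD). The difference of 0.27 ± 0.33 (log2, SE) was smaller than its error and was -0.024 ± 0.27 without control 2, so its direction rested on that dog.

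BMP2, a BMP known for driving bone formation and calcification, had signals of 735, 317, 776 and 791 in controls 1 to 4. In affected dogs 1 to 4 it was 663, 808, 1083 and 654. Control 2 lay far below the other controls, which were close to each other, with a log2 mean of 9.58 ± 0.055 (SD, n = 3) without it. The affected dogs lay on both sides of those 3 controls. Over all dogs the means were 9.26 ± 0.64 (SD, n = 4) and 9.62 ± 0.34 (SD, n = 4), a difference of 0.35 ± 0.34 (log2, SE). Without control 2 it was 0.033 ± 0.25.

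**Figure D1:**
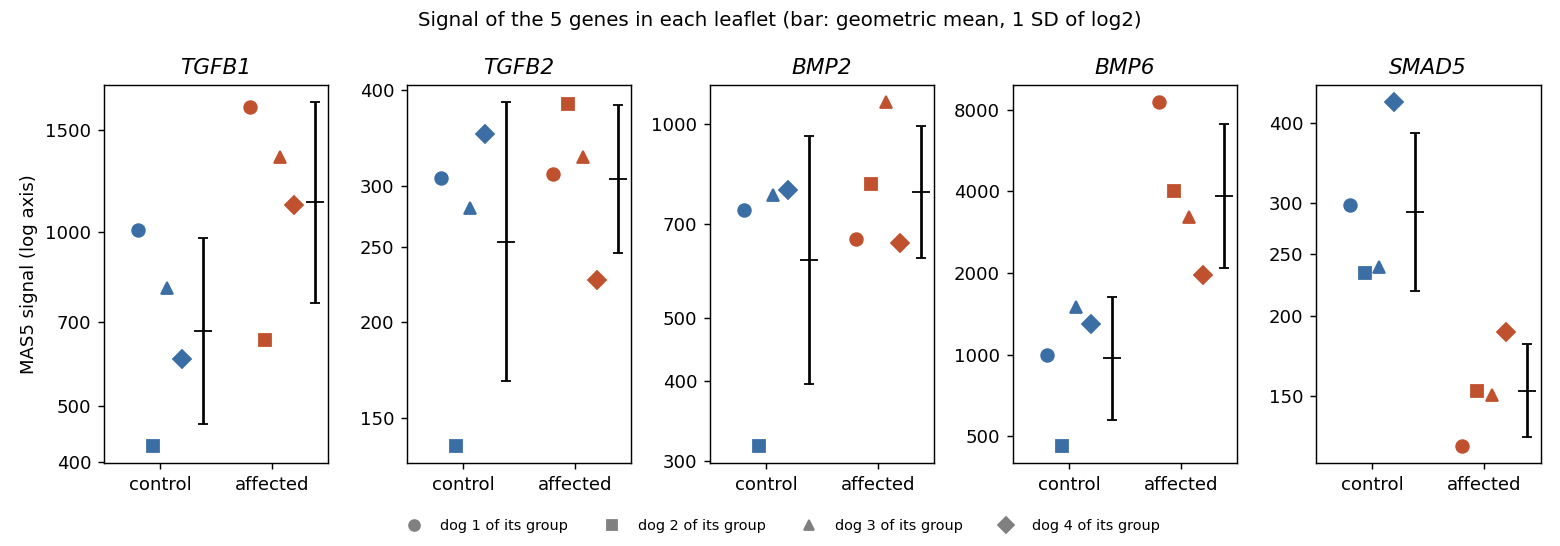
MAS5 signal on a log axis of TGFB1, TGFB2, BMP2, BMP6 and SMAD5 in each of 4 control (blue) and 4 affected (red) dogs, with 1 marker shape per dog number within its group; the black bar is the geometric mean with 1 SD of the log2 signal. The groups are apart for BMP6 and SMAD5 and overlap for TGFB1, TGFB2 and BMP2, and control 2 (blue square) is the lowest of the 4 controls in each panel.

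Control 2 had the lowest signal of the 4 controls for all 5 genes and the lowest of all 8 dogs for 4 of them, SMAD5 being the exception. Relative to the mean of the other controls it was lower by 1.84 times for TGFB1, 2.25 times for TGFB2, 2.42 times for BMP2, 2.69 times for BMP6 and 1.34 times for SMAD5. Removing it brought the differences of TGFB2 and BMP2 close to 0, lowered those of TGFB1 and BMP6 and made that of SMAD5 slightly greater. Of the 5 genes, 2 had groups that did not overlap, BMP6 and SMAD5, beside 5.08% of the 5438 tested genes, and 0 were past an adjusted p of 0.05 in limma, beside 0% of genes. Nothing is read from these counts, since the genes were chosen on this contrast.

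**Figure D2:**
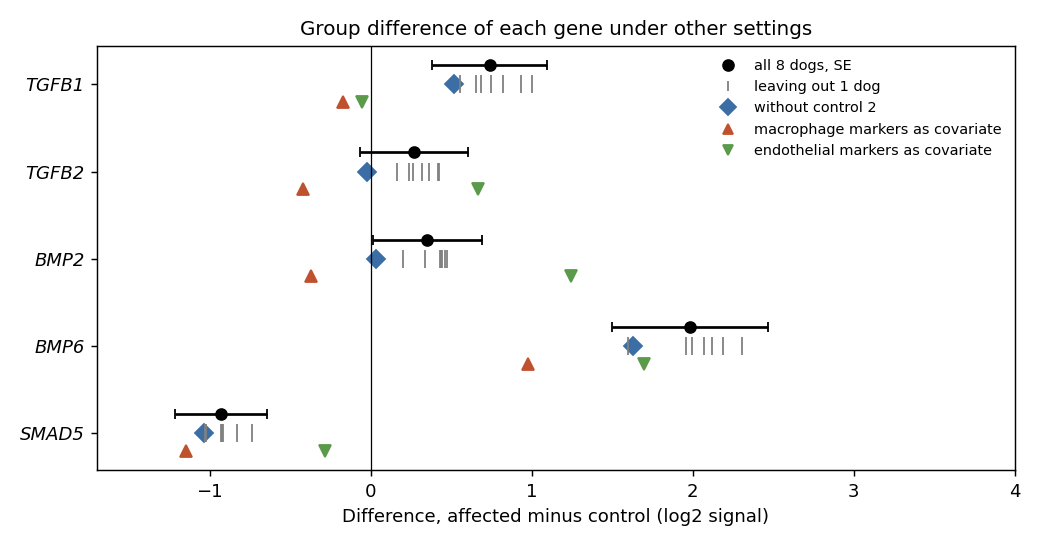
Difference in log2 signal, affected minus control, for each of the 5 genes: all 8 dogs with the SE (black), each dog left out in turn (grey ticks), without control 2 (blue diamond), and with the mean signal of macrophage (red) or endothelial (green) markers as a covariate. BMP6 stays above 0 and SMAD5 below 0 in every setting drawn, from 0.98 to 2.30 for BMP6 and from -1.15 to -0.28 for SMAD5, while TGFB1 and TGFB2 each cross 0 and BMP2 does so with the macrophage covariate.

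Mean signals of macrophage and endothelial markers were higher in affected dogs, while those of cardiac muscle overlapped between the groups. All 16 tested macrophage and monocyte markers were higher in affected dogs, and their mean log2 signal ranged from 6.46 to 9.68 in controls and from 9.81 to 11.06 in affected dogs. Of their defining genes, 4 controls had MARCO and 3 had FCER1G at the floor, while CD14, CD68 and CSF1R were above it in every dog. The mean of the 8 tested endothelial markers ranged from 9.42 to 9.87 in controls and from 10.22 to 10.56 in affected dogs, with none at the floor. The exact permutation test over dogs, two-sided, gave p = 0.0286 for each of these lists, the smallest that 4 against 4 dogs allow, and 0.105 adjusted over 11 array measures. All 4 affected dogs were above all controls for both lists. No control array held MARCO or FCER1G above the filter on dim signals, so these markers were tested only through the affected dogs and had to be higher. Without them the macrophage mean of the other 14 markers was 6.66 to 10.23 in controls and 10.17 to 11.44 in affected dogs, so affected 2 fell just below control 1 (exact permutation p = 0.0571). The 7 markers above the filter in all 4 controls also gave p = 0.0571 (exact permutation). The 15 tested cardiac muscle markers gave 11.20 to 13.92 in controls and 10.17 to 13.36 in affected dogs (exact permutation p = 0.657, adjusted 0.657).

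The dogs took much the same order for TGFB1 as for the macrophage markers. Affected 1, 3 and 4, in that order, were highest for both, and control 2 was lowest for both. With the macrophage mean as a covariate in limma the TGFB1 difference was -0.17, and with the endothelial mean it was -0.057. The BMP6 difference was 0.98 with the macrophage mean, 1.70 with the endothelial mean and 1.92 with the cardiac muscle mean. The SMAD5 difference was -1.15, -0.28 and -0.93 with these. For TGFB2 they were -0.42, 0.67 and 0.21, and for BMP2 -0.37, 1.24 and 0.22. With the 14 macrophage markers in place of the 16, the differences were -0.011 for TGFB1, -0.35 for TGFB2, -0.29 for BMP2, 1.08 for BMP6 and -1.11 for SMAD5. The endothelial mean separates the groups and the macrophage mean nearly follows them, so in these fits the group and the marker list overlap and cannot be told apart with 8 dogs.

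**Figure D3:**
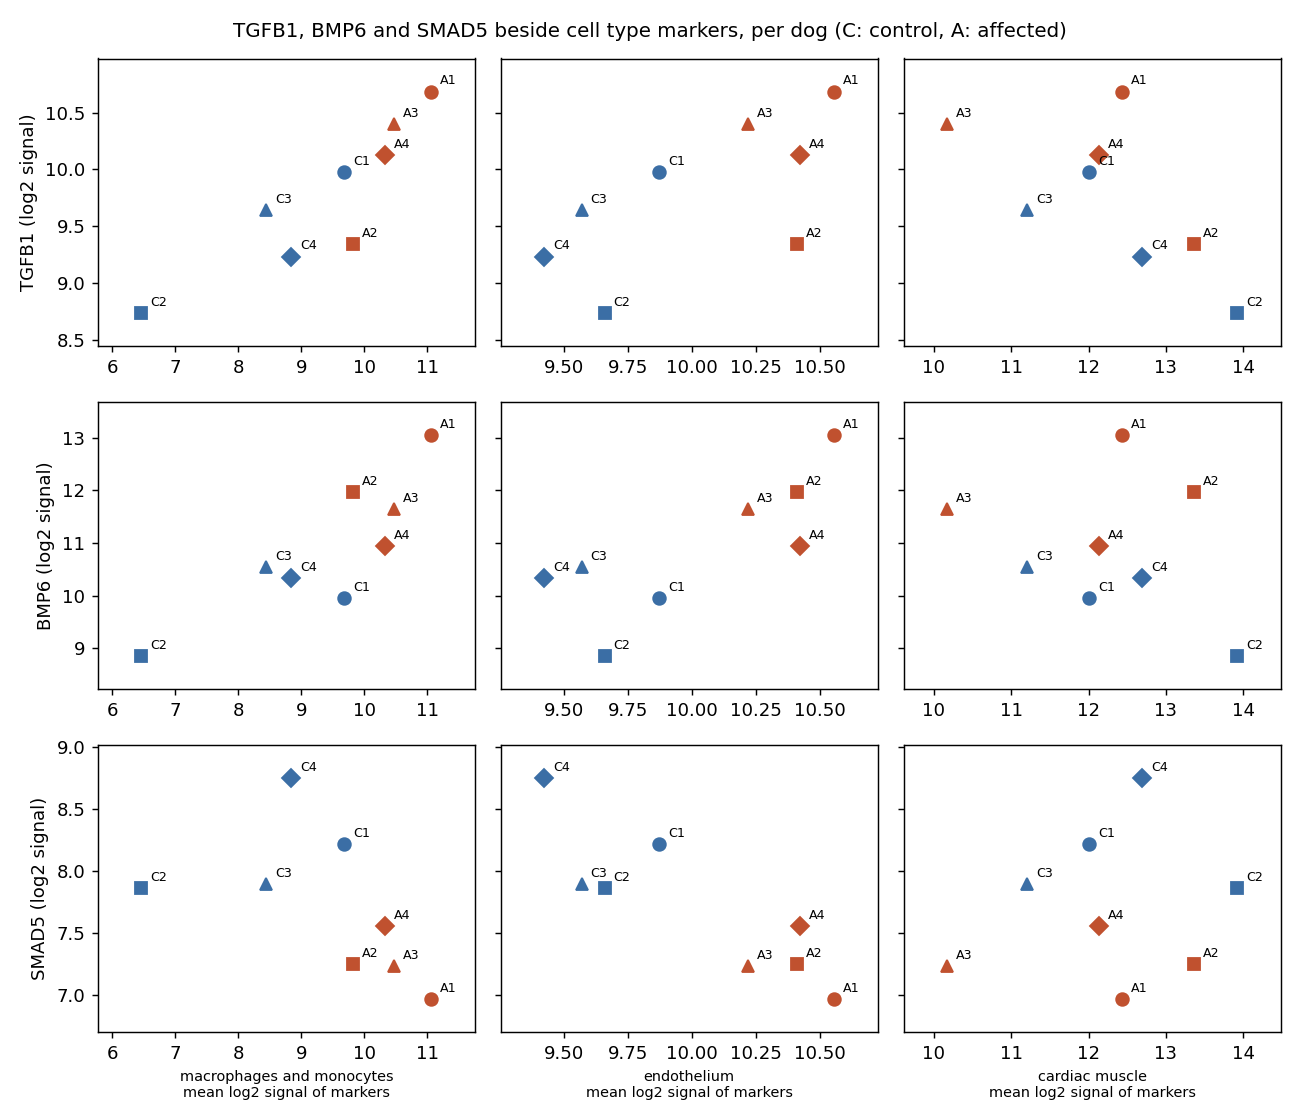
Log2 signal of TGFB1, BMP6 and SMAD5 (rows) against the mean log2 signal of macrophage, endothelial and cardiac muscle markers (columns), 1 point per dog, control in blue (C1 to C4) and affected in red (A1 to A4). Affected dogs lie to the right of all controls for the 16 macrophage markers (9.81 or more) and endothelial markers (10.22 or more) and are mixed with them for cardiac muscle; control 2 lies at the lower left for macrophage markers in the TGFB1 and BMP6 rows.

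RNA quality was read from array control probe sets at the 3' and 5' ends of the same transcript. The log2 ratio of 3' over 5' signal was 0.0044 to 0.42 in controls and 0.17 to 0.55 in affected dogs for GAPDH (exact permutation p = 0.171). For actin it was -1.82 to -0.025 in controls and -1.0 to 0.52 in affected dogs (exact permutation p = 0.486), and the difference of 0.39 was 0.019 without control 2. Adjusted over the 11 array measures these were 0.367 and 0.594. Their part in the differences of the 5 genes was not tested.

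The other genes of the pathway were taken from lists written out by role. Of 148 listed genes, 58 were named on the array and 54 were bright enough to be tested, each through its brightest probe set. None passed an adjusted p of 0.05 in limma, beside 0% of all tested genes, with 0.417 as the lowest value. Below 0.05 before adjustment, 7 were higher in affected dogs, beside 4.8% of all tested genes, and 1 was lower, beside 3.92%. The groups did not overlap for 4 genes that were higher, beside 2.7%, and for 0 that were lower, beside 2.37%. The median difference was 0.22 over the 54 genes and -0.0056 over all tested genes, and 39 of 54 were above 0, beside 49.5%. Without control 2 the counts at an unadjusted p under 0.05 were 4 higher and 3 lower of 53 genes, beside 4.3% and 4.68% of all genes, the median was 0.12 and 30 were above 0, beside 49%. The groups then did not overlap for 4 higher genes, beside 4.3%, and for 1 lower gene, LEMD3, beside 5.26%. The 3 lower genes were SOX9, ASPN and COL3A1, at -1.45 ± 0.43, -0.92 ± 0.31 and -0.74 ± 0.29.

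Few other ligands were named and bright enough. BMP5 had signals of 716, 875, 522 and 520 in controls 1 to 4 and of 67.9, 638, 715 and 211 in affected dogs 1 to 4, and the difference was -1.18 ± 0.65 (log2, SE). Affected 1 and affected 4 were low and affected 2 and affected 3 lay with the controls. BMP7 differed by 0.64 ± 0.51, with control 2 the lowest at 41.1, and by 0.15 ± 0.38 without that dog. Their adjusted p in limma was 0.680 and 0.749.

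Among the genes that hold TGF-beta latent or release it, 10 of 12 were higher, beside 49.5% of all tested genes, and the median was 0.14. The count rests on the brightest probe set of each gene. DCN is among the 10 at 0.16 ± 0.24, while its other probe sets were at -0.68 and -0.46. Below an unadjusted p of 0.05 in limma were 2 higher and 1 lower, beside 4.8% and 3.92% of all tested genes. Past an adjusted p of 0.05 were 0, beside 0%. THBS1, a matrix protein that can activate latent TGF-beta, differed by 1.34 ± 0.54 (adjusted p = 0.609 in limma). FBN1, the fibrillin of microfibrils to which latent TGF-beta is tied, differed by 0.95 ± 0.38 (adjusted p = 0.610), and its other probe sets by 0.43 and 0.90. The related fibrillin FBN2 was in the other direction, at -1.10 ± 0.46 (adjusted p = 0.614). Without control 2 THBS1 was at 0.74 and FBN1 at 0.58. The list median was then 0.031, and 6 of the 12 genes were above 0, beside 49% of all tested genes. At an unadjusted p under 0.05 in limma, 1 was then higher and 1 lower, beside 4.3% and 4.68% of all tested genes.

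Of the receptors and co-receptors, 6 of 11 were higher, beside 49.5% of all tested genes, and 5 lower, with a median of 0.036. Without control 2, 5 of 10 were higher, beside 49%, and the median was 0.018. ENG, a co-receptor of the endothelium for TGF-beta and BMPs, had signals of 2921, 1270, 3594 and 2532 in controls 1 to 4 and 8961, 4974, 4383 and 5882 in affected dogs 1 to 4. Every affected dog was above every control, and the difference was 1.27 ± 0.35 (log2, SE; adjusted p = 0.442 in limma). ENG is also 1 of the 8 endothelial markers. The type II receptor TGFBR2 differed by 0.39 ± 0.42, its other probe set by 0.79, and the first was at -0.021 without control 2. HJV, a co-receptor for BMPs, differed by -0.82 ± 0.58 and the type I receptor BMPR1B by -0.29 ± 0.27, with adjusted p of 0.727 and 0.784 in limma. Without control 2 HJV was at -0.32 ± 0.49.

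SMAD2, which carries TGF-beta signals and was the other SMAD measured, differed by 0.52 ± 0.32 (adjusted p = 0.699 in limma). Its signal was 555, 306, 296 and 288 in controls 1 to 4 and 321, 491, 627 and 628 in affected dogs 1 to 4, so control 1 and affected 1 each lay with the other group. Of the SMAD partners and regulators, 5 of 8 were higher, beside 49.5% of all tested genes, and the median was 0.26, or -0.11 without control 2. SMURF2, a ubiquitin ligase that marks SMAD proteins and their receptors for breakdown, had signals of 542, 300.2, 443 and 482 in controls 1 to 4. In affected dogs 1 to 4 it was 576, 611, 632 and 924, above all controls. The difference was 0.64 ± 0.27 (adjusted p = 0.615 in limma), and its other, dimmer probe set differed by -0.0063. PPM1A, a phosphatase reported to act on SMAD proteins, differed by -0.49 ± 0.25 and the deubiquitinase USP9X by 0.72 ± 0.50, with other probe sets of USP9X from -0.36 to 0.11. The 4 tested genes of the list of extracellular antagonists, CRIM1, BMP1, CHRDL2 and the activin binder FST, differed by 0.45 ± 0.39, 0.27 ± 0.38, 0.20 ± 0.56 and 0.12 ± 0.27. The other probe sets of CRIM1 and FST were at -0.10 and 0.50. Without control 2 the 4 genes were at 0.24, 0.12, -0.40 and 0.22 in that order, so CHRDL2 turned. BMP1 is a protease that cleaves antagonists and matrix precursors rather than an antagonist itself.

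Genes known to respond to TGF-beta were higher in 9 of 11 cases, beside 49.5% of all tested genes, with a median of 0.57. At an unadjusted p under 0.05 in limma 2 were higher, beside 4.8% of all tested genes, and 0 were lower, beside 3.92%. Past an adjusted p of 0.05 were 0, beside 0%. CDKN1A, an inhibitor of the cell cycle, had signals of 3931, 2272, 1811 and 2360 in controls 1 to 4 and of 7052, 3688, 5333 and 5800.0 in affected dogs 1 to 4. The groups overlapped through control 1 and affected 2, and the difference was 1.10 ± 0.30 (adjusted p = 0.417 in limma). TIMP1, an inhibitor of matrix proteases, differed by 2.24 ± 0.76 (adjusted p = 0.545) and by 1.34 ± 0.36 without control 2, with no overlap in either case. The matrix protein FN1 differed by 0.98 ± 0.47 and by 0.43 ± 0.23 without control 2. Its other tested, dimmer probe sets differed by 1.06 to 1.98 over all dogs. The median of this list was 0.51 without control 2, and 8 of 11 genes were higher, beside 49% of all tested genes. At an unadjusted p under 0.05 in limma 2 were then higher and 1 lower, beside 4.3% and 4.68% of all tested genes. In this list 4 genes, COL1A1, COL3A1, FN1 and POSTN, are also interstitial cell markers, while ACTA2 and TAGLN are also smooth muscle markers. These genes respond to many other signals.

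Genes known to respond to BMPs showed no common direction, with 3 of 5 higher, beside 49.5% of all tested genes, and a median of 0.23, or 0.0048 without control 2. ID3, a direct target of BMP-activated SMADs in many cells, had signals from 6146 in control 2 to 14929 in affected 3. Its difference was 0.23 ± 0.27 (adjusted p = 0.833 in limma) and -0.016 without control 2. RUNX2, a regulator of bone formation, differed by 0.38 ± 0.49 (adjusted p = 0.847 in limma). It was at the floor in control 1, and its difference was -0.15 without that dog. HAMP, the iron hormone that BMP6 induces in the liver, was dim here. It was at the floor in 2 controls, with signals of 113 and 90.8 in the others, and had 128, 118, 106 and 297 in affected dogs 1 to 4. The difference of 1.33 ± 0.52 depends on the floor, the groups overlapped and the adjusted p was 0.604 in limma.

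**Figure D4:**
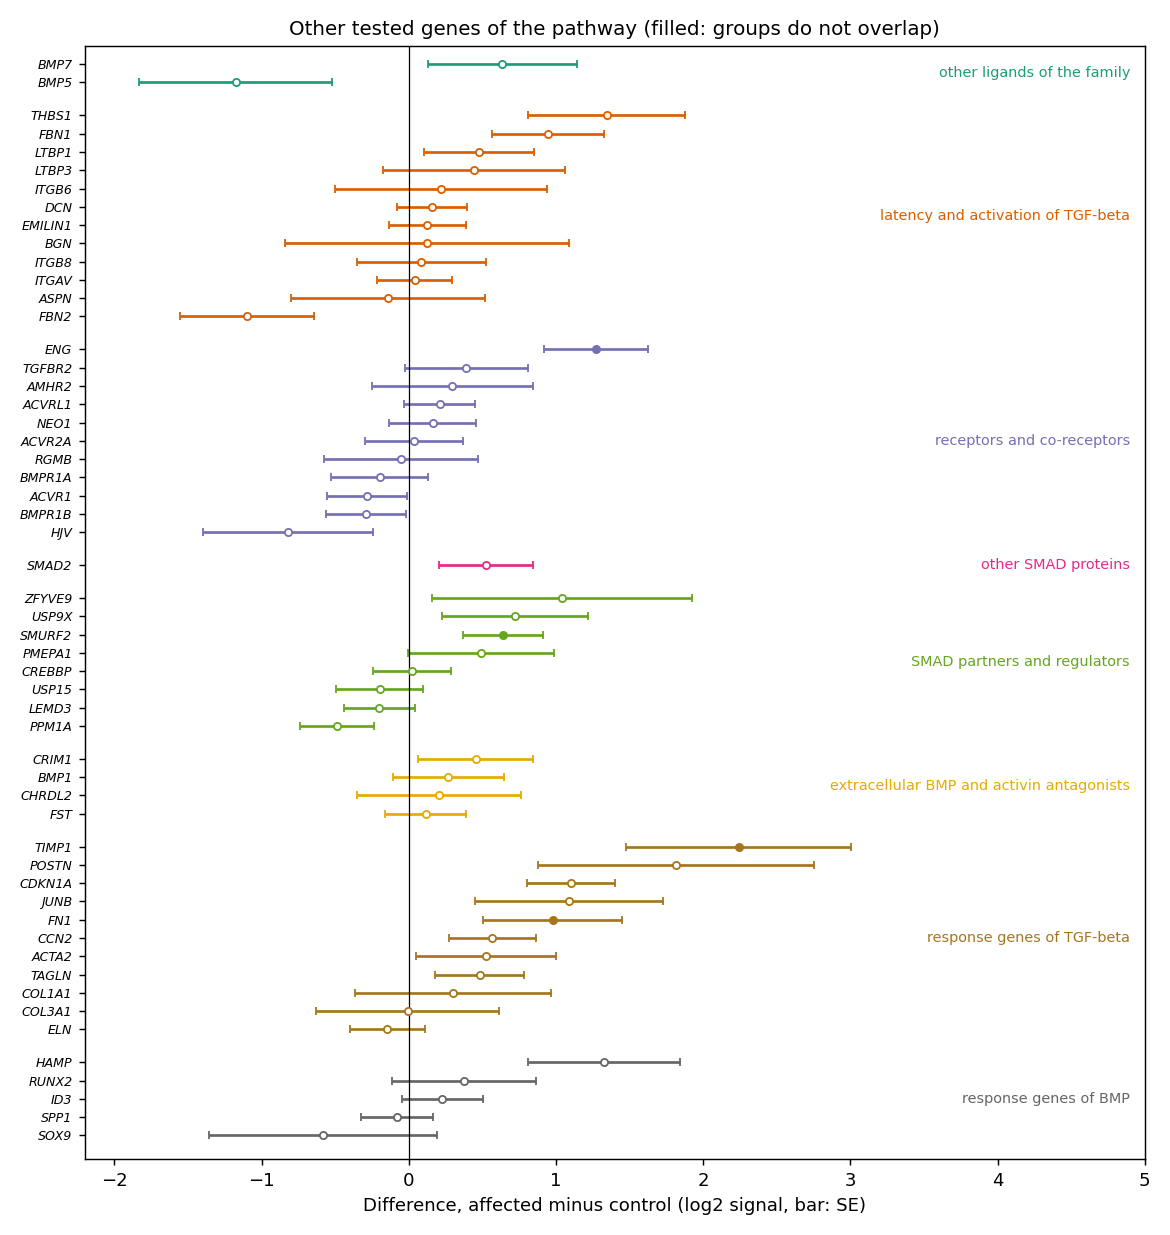
Difference in log2 signal, affected minus control, with its SE for the 54 other tested genes of the pathway, 1 row per gene in 8 lists by role; filled points mark genes whose groups do not overlap. The filled points are ENG, SMURF2, TIMP1 and FN1, all above 0; 39 of the 54 genes lie above 0 and 15 below it.

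The named genes with the most similar profiles over the 8 dogs were found by the root mean square distance between log2 values, each gene centred on its own mean. For BMP6 the nearest of the tested genes was CD209, a lectin of macrophages and dendritic cells, at a distance of 0.31, where the spread of BMP6 itself was 1.22 and the median distance of all genes 1.28. LOC610201 at 0.44 and ITIH1, which helps carry hyaluronan, at 0.45 came next. CD209 differed by 1.65 ± 0.42 between the groups and ITIH1 by 1.72 ± 0.47. For TGFB1 the nearest were GRN, a growth factor abundant in macrophages, at 0.17, WDR1, which helps disassemble actin filaments, at 0.20 and the chloride channel protein CLIC1 at 0.21, against a spread of 0.61. For SMAD5 they were CIRBP, a cold-inducible RNA-binding protein, at 0.19, the transcription factor NFATC3 at 0.20 and CYP2B6 at 0.24, against a spread of 0.55. For TGFB2 they were CPED1, OAZ3 and AURKB at 0.13 to 0.17, and for BMP2 INPP5K, DOCK1 and ELMO2 at 0.13 to 0.17, against spreads of 0.44 and 0.48. DOCK1 and ELMO2 belong to one complex that activates the GTPase RAC. These genes were picked as the nearest of 5438, and control 2 takes a large part of each ligand's profile.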

How the data were processed

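Total RNA of 8 leaflets was labelled with biotin and hybridised to 1 array each, per the labels. The deposited values are linear signals (intensity of a probe set). MAS5 is the tool that the submitters' processing notes name, with its version not given in the sources used here, and detection calls were not used. MAS5 subtracts mismatch signal, so dim values are imprecise. Before any other step each array was scaled here to the same trimmed mean (2% off each end), and the signals given are after this scaling. The equal trimmed means therefore do not show how the deposited values had been scaled. Symbols came from the platform annotation, which named 1 gene for 10549 of 23913 rows. No build is named, so no coordinates are given.

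Signals under 34.2, the 20th percentile of all, were set to that floor before log2. A probe set was tested if 4 or more arrays lay above their 40th percentile. limma 3.58.1 in R 4.3.3 compared the groups over 14705 probe sets (eBayes with trend, two-sided, Benjamini-Hochberg, threshold 0.05), and all p-values named for single genes come from it. Precision is limited by the number of arrays. One of the array measures is not reported here. The test was tried on simulated data.

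The 5 genes, the lists and the tests were chosen with earlier results of these data known. Named in the text were all 5 genes, the 3 genes of each list with the smallest p and the 3 nearest profiles of each member. The rule also let any ligand, receptor or SMAD be named, and TGFBR2 was named under it. CHRDL2, COL1A1, COL3A1, POSTN, ACTA2, TAGLN, SOX9, ASPN, LEMD3, DCN, GAP43, S100B and the defining macrophage markers were named after their values were seen. Alternatives were other normalizations, filters, floors, priors, array weights, a replicate block, marker lists as covariates, averaged probe sets and leaving out each dog. The interstitial and endothelial covariates, values relative to the interstitial markers, and shorter macrophage lists were added after seeing the data.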

Additional observations from a re-analysis of the deposited data

Results flagged for a closer look

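In groups of 4 dogs, a value was marked when its gap to the nearest other dog was a greater share of the range of the group than Dixon's critical value for 4 samples, which chance does in about 1 of 20 groups. Of 76 groups checked, 7 had such a value, all of them in controls, and 6 of the 7 were control 2. BMP2 had a log2 signal of 8.31 in control 2, and the other controls lay between 9.52 and 9.63. THBS1 was 11.25 in that dog, below 13.42 to 13.79 in the others. TIMP1 was 9.19, below 12.62 to 13.01. FN1 was 11.82, below 13.95 to 14.09. ID3 was 12.59, below 13.51 to 13.64. TGFBR2 was 11.39, below 12.91 to 13.17. SMAD2 was marked for another dog, control 1, at 9.12 and above the other controls at 8.17 to 8.26. Control 2 also had the highest mean of the cardiac muscle markers, 13.92, and the lowest of the interstitial markers, 11.73. The part of these in its low values was not tested.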

How the results depend on the processing

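BMP6 stayed higher and SMAD5 lower under every alternative run, from 0.98 to 2.30 and from -1.47 to -0.28, except that SMAD5 was too dim to be tested under the stricter filter. Other filters, other priors and the replicate block do not alter the difference of a probe set, so those alternatives could not turn it. With the macrophage covariate TGFB1, TGFB2, BMP2 and BMP6 were at -0.17, -0.42, -0.37 and 0.98, and with the endothelial covariate TGFB1, BMP2 and SMAD5 were at -0.057, 1.24 and -0.28. Relative to the interstitial markers of the same dog TGFB1, TGFB2, BMP2 and SMAD5 were at 0.20, -0.27, -0.19 and -1.47. TGFB2 also turned with array weights (-0.055) and the interstitial covariate (-0.037). Quantile normalization and median centring shifted the median of all probe sets by -0.029 and -0.074 and turned no member.

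No probe set passed the threshold under 20 of 22 alternatives. Leaving out 1 dog gave 0 to 1, and the fit with the replicate number as a block gave 4. The labels do not say that the numbers pair the dogs. Deviations of dogs with the same number correlated from -0.12 to 0.41, and 1 of 4 controls matched its own number best. With 4 dogs per group these values cannot decide whether the numbers pair them. The count of pathway genes past the threshold was 0 throughout. Those lower at an unadjusted p under 0.05 were 2 with no filter, the replicate block or the muscle covariate, beside 4.01%, 5.02% and 5.76% of all genes in the same fit, and 3 with array weights, beside 7.21%. With the macrophage covariate 8 of 54 (14.8%) were lower, beside 5.17%, and 2 (3.7%) higher, beside 3.16%. Without 1 dog 0 to 3 were lower, beside 1.9% to 5.59%, and 4 to 8 higher, beside 2.92% to 6.71%. The median of other ligands was -1.18 with the stricter filter, which left BMP5. That of SMAD partners was -0.031 with array weights, -0.18 with the macrophage covariate and -0.11 to 0.38 without 1 dog, and that of TGF-beta response genes -0.17 with the macrophage covariate.

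Of 473 refits of 22 named pathway genes, 459 kept their direction, and the smallest adjusted p was 0.0953. Refits with other filters, other priors or the replicate block could not turn a probe set, so part of this count was fixed in advance. With the macrophage covariate BMP7, THBS1, HJV, CRIM1, TIMP1, FN1, ID3 and TGFBR2 turned to -0.88, -0.18, 0.77, -0.14, -0.35, -0.32, -0.44 and -0.89. RUNX2 was at -0.0092 with a floor at the 40th percentile. Without 1 dog RUNX2 ranged from -0.15 to 0.63, ID3 from -0.016 to 0.34, TGFBR2 from -0.021 to 0.59, BMP1 from -0.031 to 0.54 and FST from -0.090 to 0.23. The group difference of the cardiac muscle mean ranged from -0.87 to 0.19 and that of the median log2 signal from -0.033 to 0.18. The cause was not tested for these changes.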

Other observations

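The other marker lists are given as a mean log2 signal per dog with a two-sided exact permutation p over dogs, and none was past 0.05 after adjustment over 11 array measures. Fat cell markers (5 tested genes) ranged from 8.39 to 10.22 in controls and from 7.99 to 8.29 in affected dogs, with every affected dog below every control (exact permutation p = 0.0286, adjusted 0.105). Markers of T and B lymphocytes (4 tested genes) ranged from 7.63 to 8.38 in controls and from 8.06 to 8.36 in affected dogs (exact permutation p = 0.2, adjusted 0.367), a difference of 0.28 that was 0.18 without control 2. Smooth muscle and myofibroblast markers (7 tested genes), among them ACTA2 and TAGLN, which TGF-beta is known to raise, ranged from 11.07 to 11.90 and from 11.09 to 12.43 (exact permutation p = 0.371, adjusted 0.584), a difference of 0.34 that was 0.12 without affected 2. Interstitial cell markers had a mean of 13.26 ± 1.05 for the 4 controls and of 13.81 ± 0.21 for the 4 affected dogs, each with its SD (exact permutation p = 0.486, adjusted 0.594), and the difference of 0.54 was 0.031 without control 2. The lists of mast cells, of platelets and red cells and of nerve had fewer than 3 tested genes, and their group differences were 0.74, 0.063 and 0.02 with no test. The value for nerve averages genes in opposite directions, GAP43 at 1.58 ± 0.35 and S100B at -1.54 ± 0.65 (log2, SE). The other probe set of GAP43 was at 0.76.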
